A study of Oryza sativa with 12 samples.

Results

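Transcripts of rice embryonic axes labelled 4H were set against those of axes labelled 0H, where both came from seed that had been stored warm and humid at 40 °C. The comparison used 3 arrays of each label, which are 6 of the 12 Affymetrix Rice Genome Arrays in the series. They were chosen by their sample titles, and no measured value entered the choice of arrays. Both groups were of cultivar Nipponbare, and per the labels their seed passed through the same steps: 3 days of equilibration at 25 °C and 85% relative humidity, storage at 40 °C and 85% relative humidity, and 3 days of drying at 32% relative humidity and 25 °C. The storage lasted 14 days according to the protocol and 15 days according to the description. The other 6 arrays hold the same 0H and 4H labels from control seed kept at 25 °C throughout. Their own contrast is used here only to ask whether the 4H change differed between the temperatures. Those arrays also entered the filter on low values, the choice of probe set for each gene and the estimate of spread behind the 40 °C p-values. The labels do not define 0H and 4H, so the suffixes are used here as names and not as times of a stated treatment. They also do not say whether numbered replicates came from separate seed lots, so p-values measure the spread between these arrays, which may be technical.

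The embryonic axis is the part of the embryo that grows into root and shoot. A mature dry axis carries stored transcripts, among them those of late embryogenesis abundant proteins and heat shock proteins, which protect cell structures in the dry state. When seed takes up water, stored transcripts of this kind decline while transcripts for energy metabolism, translation and cell wall growth are made. Storage in warm humid air is a laboratory model of seed ageing, in which oxidative damage to lipids, proteins and nucleic acids builds up and vigour is lost.

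Signals are log2 values, so a difference of 1 is a 2-fold change. Of 57258 probe sets that are not controls, 17650 lay above log2 4 in at least 3 of the 12 arrays and were tested. The third-highest value was 4.001 in the kept probe set nearest this limit and 3.9998 in the nearest one left out. Only through the 3 4H arrays at 40 °C were 389 of the probe sets kept, and only through the 3 0H arrays were 41 kept, so these had to differ between the groups. One probe set was taken for each of 11516 genes, of which 1686 have a usable name. Where all 3 arrays of the lower group read below log2 4, a change is given as at least the distance from 4 to the mean of the higher group. Where all 6 arrays read below 4, no size is given.

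Within the 0H group the 3 arrays correlated at 0.9916 to 0.9935 over the kept probe sets, and within the 4H group at 0.9886 to 0.9934. Array medians over all probe sets ranged from 1.49 to 1.59. In the 40 °C arrays, between 25.51% and 26.46% of the probe sets exceeded log2 4. The poly-A spike-ins, bacterial transcripts added during labelling, read 8.55, 8.57 and 4.59 in 0H and 4.97, 3.96 and 5.88 in 4H, so that 0H replicates 1 and 2 stood apart from the other 4 arrays. The difference between the 3′ and 5′ Gapdh probe sets, which grows as RNA is broken down or copied less fully, was 3.66 ± 0.29 (SD, n = 3) in 0H and 2.77 ± 0.20 (SD, n = 3) in 4H (exact permutation test, two-sided, p = 0.1, the smallest that 3 against 3 arrays allow, adjusted p = 0.2 over 10 controls). The same 3′ minus 5′ difference was also lower in 4H for Actin (3.33 in 0H, 2.95 in 4H) and Cyph (0.88, 0.44). For Ubiquitin it hardly moved (-0.52, -0.60). The 25S ribosomal RNA read 11.79 in 0H and 11.20 in 4H, and the hybridisation spike-ins 8.33 and 8.89. The 28S and 5.8S means differed by 0.01 and -0.04, and 18S by 1.38 (0H SD 1.45). The part of these measures in the results was not tested, and the calls without 0H replicates 1 and 2 are given with the alternatives.

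The labelled tissue was checked against marker genes. Of 6 embryo markers, 5 passed the filter on low values, and their summed level lay between 13.82 and 13.89 in 0H and between 13.39 and 13.49 in 4H. Sums were taken on the linear scale, so each follows its strongest markers. Here these were RAB21 and Emp1, with 0H means of 13.1 and 12.46, which are also stored transcripts of late embryogenesis. Of the 5 markers, 4 were called lower and 1 higher, and OSH1, given below, was under log2 4 in 4H. Of 4 markers of green tissue, 3 stayed below log2 4 in all 12 arrays, with highest values of 1.70 for CAB2R, 2.02 for LHCP and 0.78 for RBCS1. The other, RBCS, lay between 5.37 and 5.68 in 0H and between 3.13 and 3.34 in 4H, where it was called lower (at least 1.51). The summed level of the 9 kept endosperm markers, out of 10, ranged from 11.48 to 11.60 in 0H and from 10.72 to 11.03 in 4H. For the 6 kept markers of aleurone and scutellum, out of 7, the range was 11.95 to 12.01 in 0H and 10.76 to 10.85 in 4H. Of these 6, 2 were called higher and 4 lower, and the strongest in 0H was LTP-2, at a mean of 11.62. These lower summed levels at 4H move with the changes described next, and their part in them was not tested. In such bulk samples, fewer cells of a type and less RNA per cell cannot be told apart.

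Most of the measured transcriptome differed between 4H and 0H axes. At adjusted p under 0.05 (limma), 15396 probe sets were called (87.2%), 7231 higher (41.0%) and 8165 lower (46.3%) at 4H. Counted by gene, 10193 of 11516 were called (88.5%), 4470 higher (38.8%) and 5723 lower (49.7%), and the arrays of the groups did not overlap for 10431 genes (90.6%). The median size over all genes was -0.16, with lower bounds entered at their bound and genes below 4 in all 6 arrays at 0. Because a call is the usual outcome here, the sizes and the counts beyond 2-fold say more than the calls. More than 2-fold higher were 2566 genes (22.3%), and more than 2-fold lower were 3168 (27.5%). At larger sizes the balance turned, as 481 genes were more than 8-fold higher against 77 more than 8-fold lower. Beyond 16-fold there were 198 rises and 1 fall. Lower bounds stand for 986 of the rises and 1041 of the falls, so the counts beyond a given fold are minimum counts. As many as 905 genes lay below log2 4 in all 3 0H arrays and above it in all 3 4H arrays, and 914 did the reverse.

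**Figure D1:**
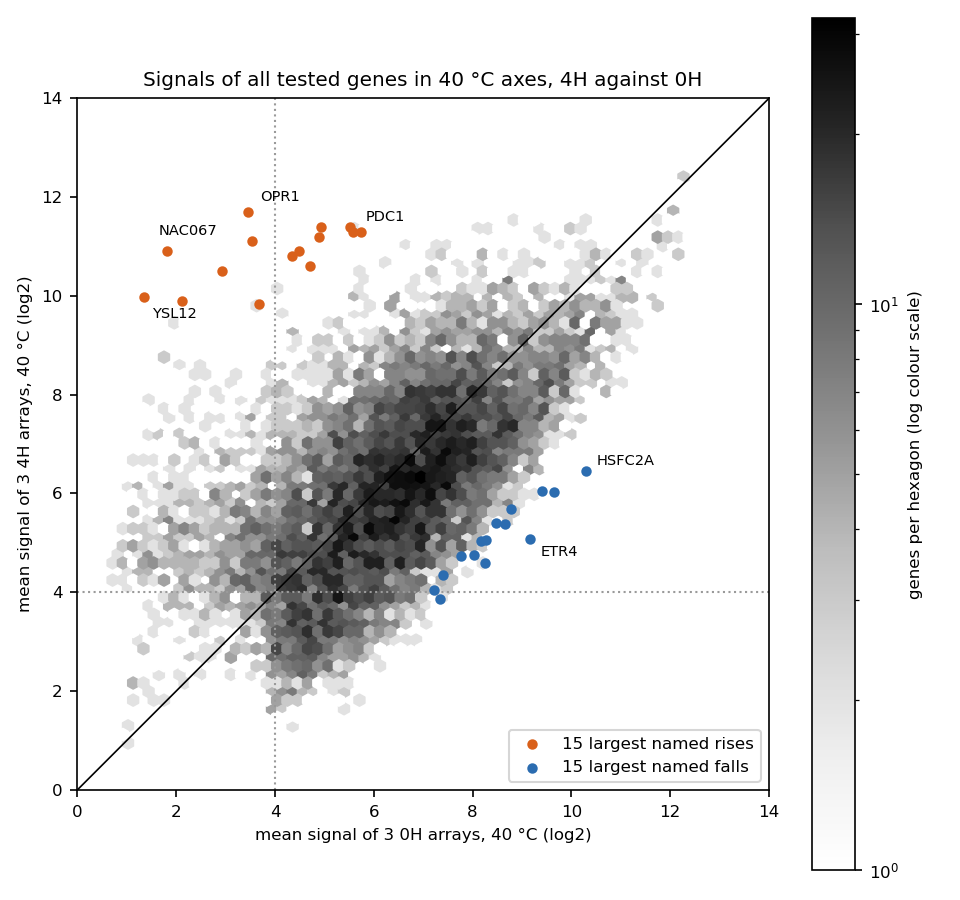
Mean signal of each of 11516 tested genes in the 3 0H arrays (horizontal axis, log2) and the 3 4H arrays (vertical axis, log2) of 40 °C axes, with darker hexagons holding more genes and dotted lines at log2 4. The largest named rises (orange) reach 4H means between 9.84 and 11.7, and the largest named falls (blue) start from 0H means between 7.22 and 10.3.

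Rises are ordered by their size, lower bounds included, and a bound does not fix the order of genes below log2 4 in 0H: the fitted changes were 9.10 for NAC067, 8.62 for YSL12 and 8.26 for OPR1. First by size came OPR1, one of the 12-oxophytodienoate reductases, some of which act in making jasmonate. It read 3.38, 3.65 and 3.32 in 0H and 11.58, 11.69 and 11.87 in 4H. All 3 0H arrays lay below log2 4, and the rise was at least 7.71, or at least 210-fold (adjusted p = 2.26e-11). A further 2 reductases of this family were among the 15 largest rises. OPR10 read 3.23, 3.54 and 3.81 in 0H and 11.16, 11.01 and 11.11 in 4H (at least 7.09, adjusted p = 1e-11). OPR5 read 1.81, 2.18 and 2.35 in 0H and 9.99, 9.93 and 9.78 in 4H, a rise of at least 5.90. JAZ6, a repressor of jasmonate responses, read 4.95, 4.96 and 4.78 in 0H and 11.13, 11.10 and 11.31 in 4H, a rise of 6.28 ± 0.18 (SE).

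Transcription factors and a hormone response regulator made up another share of these rises. NAC067, of the NAC family, read 1.84, 1.89 and 1.70 in 0H and 10.93, 10.82 and 10.98 in 4H (at least 6.91, adjusted p = 6.4e-10). DREB1B, which binds promoters of cold- and drought-responsive genes, read 2.91, 3.14 and 2.70 in 0H and 10.62, 10.43 and 10.46 in 4H (at least 6.5). CIGR2, a GRAS-family factor, was above log2 4 in every array, at 4.08, 4.46 and 4.53 in 0H and 10.79, 10.69 and 10.99 in 4H. Its rise was 6.47 ± 0.16 (SE), or 88.8-fold. HSFA3, a class A heat stress factor, went from 5.84, 5.78 and 5.65 to 11.31, 11.30 and 11.32, a rise of 5.55 ± 0.15 (SE). RR6, a type-A response regulator of cytokinin signalling and not itself a DNA-binding factor, went from 4.84, 4.79 and 4.51 to 10.77, 10.57 and 10.48 (5.89 ± 0.27, SE).

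The remaining large rises were of enzymes, a transporter and a zinc finger protein. GRXS5, a glutaredoxin that reduces disulfides with glutathione, read 4.93, 4.89 and 4.97 in 0H and 11.45, 11.30 and 11.35 in 4H (6.43 ± 0.22, SE, or 86.5-fold). RIBA2, of riboflavin synthesis, rose by 6.42 ± 0.15 (SE), and GSTU6, a tau-class glutathione S-transferase, by 5.87 ± 0.17 (SE). PDC1, the pyruvate decarboxylase that opens ethanol fermentation, went from 5.28, 5.84 and 5.63 to 11.36, 11.36 and 11.31 (5.76 ± 0.25, SE). YSL12, a yellow stripe-like carrier of metal chelates, was below 4 in all 0H arrays and rose by at least 5.97. SAP17, a zinc finger protein of the A20/AN1 kind, was likewise below 4 in 0H and rose by at least 5.84. In all 15 genes, every 4H array lay above every 0H array, which was part of the rule that chose them.

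Falls were smaller, and the largest was that of ETR4, an ethylene receptor. It read 9.09, 9.26 and 9.13 in 0H and 5.21, 4.91 and 5.1 in 4H, a difference of -4.09 ± 0.14 (SE), 17.0-fold (adjusted p = 1.39e-12). HSFC2A, a class C heat stress factor, read 10.31, 10.31 and 10.30 in 0H and 6.47, 6.58 and 6.33 in 4H (-3.84 ± 0.12, SE, 14.4-fold). The arrays of each group lay close together, and the groups were far apart. OsTDX, a thioredoxin with tetratricopeptide repeats, went from 8.21, 8.22 and 8.33 to 4.78, 4.65 and 4.35 (-3.66 ± 0.10, SE). PPDK2, a pyruvate phosphate dikinase, fell by 3.63 (SE 0.09), read on a probe set that can also bind similar transcripts. TIP1-2, a water channel of the vacuole membrane, went from 9.45, 9.43 and 9.32 to 6.27, 5.63 and 6.26 (-3.35 ± 0.19, SE).

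Several other falls were in metabolism and signalling. SPP1, the sucrose-phosphate phosphatase of the last step of sucrose synthesis, read 7.12, 7.43 and 7.48 in 0H and 3.68, 3.98 and 3.91 in 4H, a fall of at least 3.34. OSL2, a GABA transaminase, differed by -3.29 and BGLU14, a beta-glucosidase, by -3.27. SAPK3, a kinase of the SnRK2 family, which includes abscisic acid and osmotic stress kinases, read 8.24, 8.25 and 8.04 in 0H and 5.31, 4.86 and 4.95 in 4H (-3.14). SPO11-4, a homologue of the protein that makes meiotic DNA breaks, differed by -3.16, OsETTIN2, an auxin response factor, by -3.08, ARG1, arginase, by -3.06, DNG701, a DNA glycosylase that removes methylated cytosine, by -3.05, and SAT5, a serine acetyltransferase, by -3.02. HPT1, which makes tocopherol precursors, has 6 kept probe sets that disagree in size. Of these, 3 gave -3.25, -3.22 and -2.98, and the other 3 gave -0.39, -0.43 and -0.48. The latter had 0H means of 4.34, 4.79 and 4.47, near the log2 4 limit, which leaves little room for a measured fall.

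**Figure D2:**
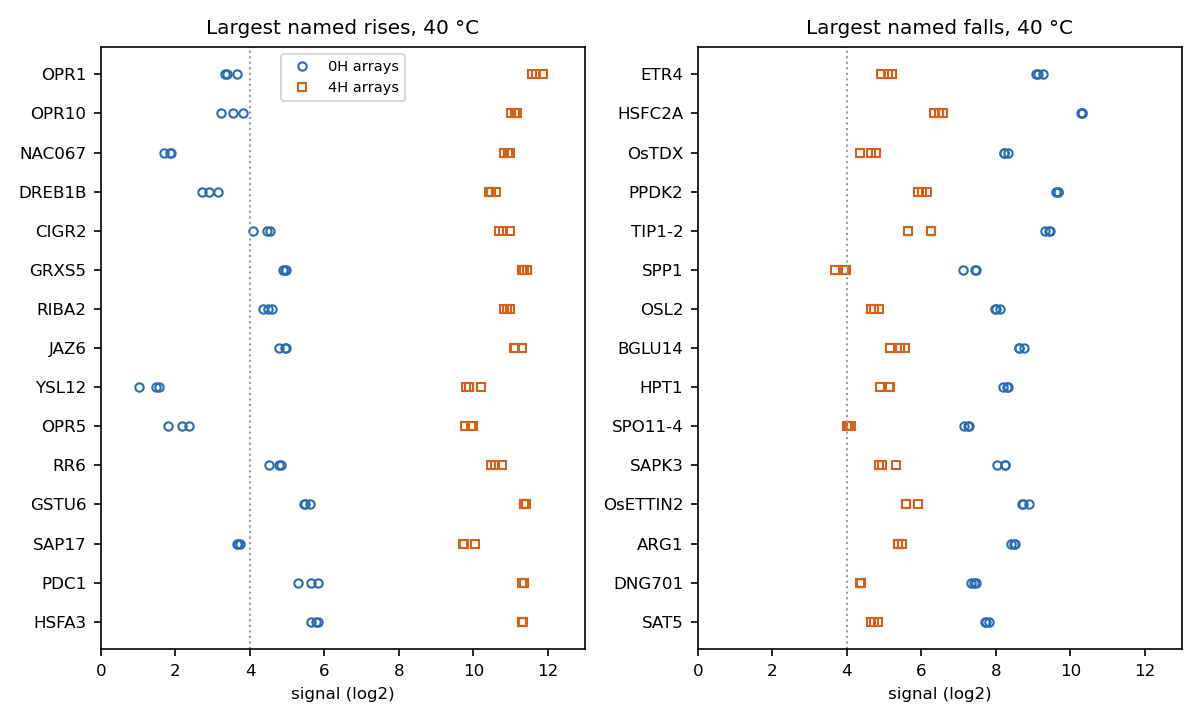
Signal (horizontal axis, log2) of the 15 largest named rises (left) and 15 largest named falls (right) in each 40 °C array, with circles for the 3 0H arrays, squares for the 3 4H arrays and a dotted line at log2 4. Replicates of each group lie close together beside the gap between groups, and several of the rising genes, such as NAC067 and YSL12, start below the dotted line.

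Probe sets that can bind several similar transcripts were read for JAZ6, PPDK2 and HPT1, and below for GLUA-1, HSP18.8, HSP26.2, QM1, GAPC, HXK8, AMY1.4, EXPB4, OsNrx1-2, GAMYB, JAZ10, AHP1, TIP3-1 and TIP2-2, so their values may include relatives.

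Genes were also read by pathway in 39 lists, each described by its counts and its median size beside the median of -0.16 over all genes and the shares of 38.8% higher and 49.7% lower. A list holds only genes found by a symbol or synonym, so it can be a small part of its family. Of 17905 genes paired with a probe set, 2438 had a usable short name.

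In several families of stress transcription factors, nearly every listed member that passed the filter was higher at 4H. The filter can favour such counts, since a member below log2 4 in every 0H array was kept only if 4H arrays exceeded it. WRKY24 and NAC067, among others, read below log2 4 in the 0H arrays compared here. How many listed members were kept only through 4H arrays was not counted. All 7 kept DREB and ethylene response factors, out of 12 listed genes with a probe set, were higher, 6 of them more than 2-fold (median size 1.86). DREB1A, like DREB1B a factor of the cold response, read 4.33, 4.68 and 4.89 in 0H and 9.78, 9.34 and 9.68 in 4H (4.97 ± 0.31, SE). DREB2B, of the dehydration and heat response, rose by 3.93 ± 0.16 (SE), and EREBP-1 by 1.33 ± 0.07 (SE). The 5 kept WRKY factors, out of 6, were all more than 2-fold higher (median size 3.06). WRKY24 lay below log2 4 in 0H and at 8.40, 8.33 and 8.33 in 4H (at least 4.35). WRKY76 rose by at least 4.02, wrky38 by 3.06 and WRKY51 by 2.81. All 4 kept NAC factors, out of 8, were higher: beside NAC067, NAC068 rose by at least 2.96, NAC071 by 1.85 and NAC048 by 0.91. Among 7 kept MYB factors, out of 11, 6 were higher and none lower (median size 2.09). MYB4 rose by at least 4.42, MYB15 by 2.18 and GAMYB, a regulator of alpha-amylase genes, by 1.76. The bZIP factors differed from these families, with 6 higher and 7 lower of 13. BZIP50, which drives the response to unfolded proteins in the endoplasmic reticulum, rose by 3.49 ± 0.10 (SE), and ABF2, of abscisic acid signalling, fell from 7.77, 7.84 and 7.86 to 6.23, 6.21 and 6.29 (-1.58).

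Among the hormone pathways, jasmonate genes were mostly higher. Of 21 kept genes, 17 were higher and 4 lower, 15 of them more than 2-fold higher and 1 more than 2-fold lower (median size 1.99). Besides the reductases and JAZ6, the repressor JAZ10 went from 5.21, 5.32 and 5.23 to 9.73, 9.65 and 9.64 (4.42 ± 0.11, SE). GH3.5, which joins jasmonate to amino acids and is also in the auxin list, went from 4.29, 4.32 and 4.32 to 8.67, 8.50 and 8.53 (4.26 ± 0.14, SE). The 4 that fell include COI1, a jasmonate receptor (-1.57), and aoc, the allene oxide cyclase of jasmonate synthesis (-0.89). COI1B, a relative of COI1 named here only for comparison, rose by 2.31. Synthesis enzymes, repressors and receptors thus did not all move one way.

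Most abscisic acid genes moved the other way, with 6 of 24 higher and 17 lower (median size -0.85), and 11 more than 2-fold lower. Of those that rose, 5 did so more than 2-fold. SAPK5, a SnRK2 kinase, went from 5.10, 4.91 and 5.08 to 10.35, 10.36 and 10.34 (5.32 ± 0.14, SE), which is opposite to its relative SAPK3. PYL11, of the receptor family, rose by 3.62 ± 0.09 (SE), ABA8OX1, which breaks abscisic acid down, by 3.31 ± 0.12 (SE), and VP1, a seed maturation factor, by 1.85 ± 0.09 (SE). The ethylene receptors were also divided: ETR4 fell, ETR2 was below log2 4 in 0H and rose by at least 4.33, and ERS1 rose by 1.87. EIN2, which passes the ethylene signal on, fell from 5.8, 5.68 and 5.76 to 4.29, 4.54 and 4.59 (-1.28). Of the 7 kept ethylene genes 4 were higher and 2 lower.

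Auxin genes divided into 17 higher and 16 lower of 40, 1 of them called with all 6 arrays below log2 4, and IAA24 rose by 3.10 while its fellow repressor IAA3 fell by 2.66. In the cytokinin and brassinosteroid list 13 of 22 were higher and 6 lower, again with 1 call below log2 4 in all 6 arrays. LOG, which activates cytokinin, rose by 2.07 and BZR3, a brassinosteroid-responsive factor, by 2.27, while AHP1, a carrier of phosphate in cytokinin signalling, fell by 1.64. Of 7 kept gibberellin genes 3 were higher and 3 lower, with GA20OX3, a synthesis enzyme, up by 1.47 and SLRL1, a DELLA-like protein, down by 2.1.

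Calcium signalling and the A20/AN1 zinc finger proteins were mostly higher. Of 40 kept calcium-dependent kinases, CBL-interacting kinases and CBL proteins, 24 were higher and 9 lower, 19 and 3 of them beyond 2-fold (median size 0.91). CPK13 went from 5.61, 5.24 and 5.68 to 9.88, 9.90 and 9.95 (4.40 ± 0.11, SE), CPK7 rose by 4.1 and CIPK1 by at least 3.72, while CIPK8 fell by 2.04 and CBL6 by 1.41. Among 17 kept calmodulins and calmodulin-like proteins, 9 were higher and 6 lower. CML10 rose by 4.62, CML5 by 4.59 and CML31 by at least 4.75, and CML16 fell by 1.49. Of 11 stress-associated A20/AN1 proteins 10 were higher and 1 lower (median size 1.84). SAP11 went from 4.27, 4.27 and 4.54 to 9.35, 9.14 and 9.45 (4.95 ± 0.17, SE) and SAP9 rose by 3.06. SAP3 was the member that fell, by 0.71.

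**Figure D3:**
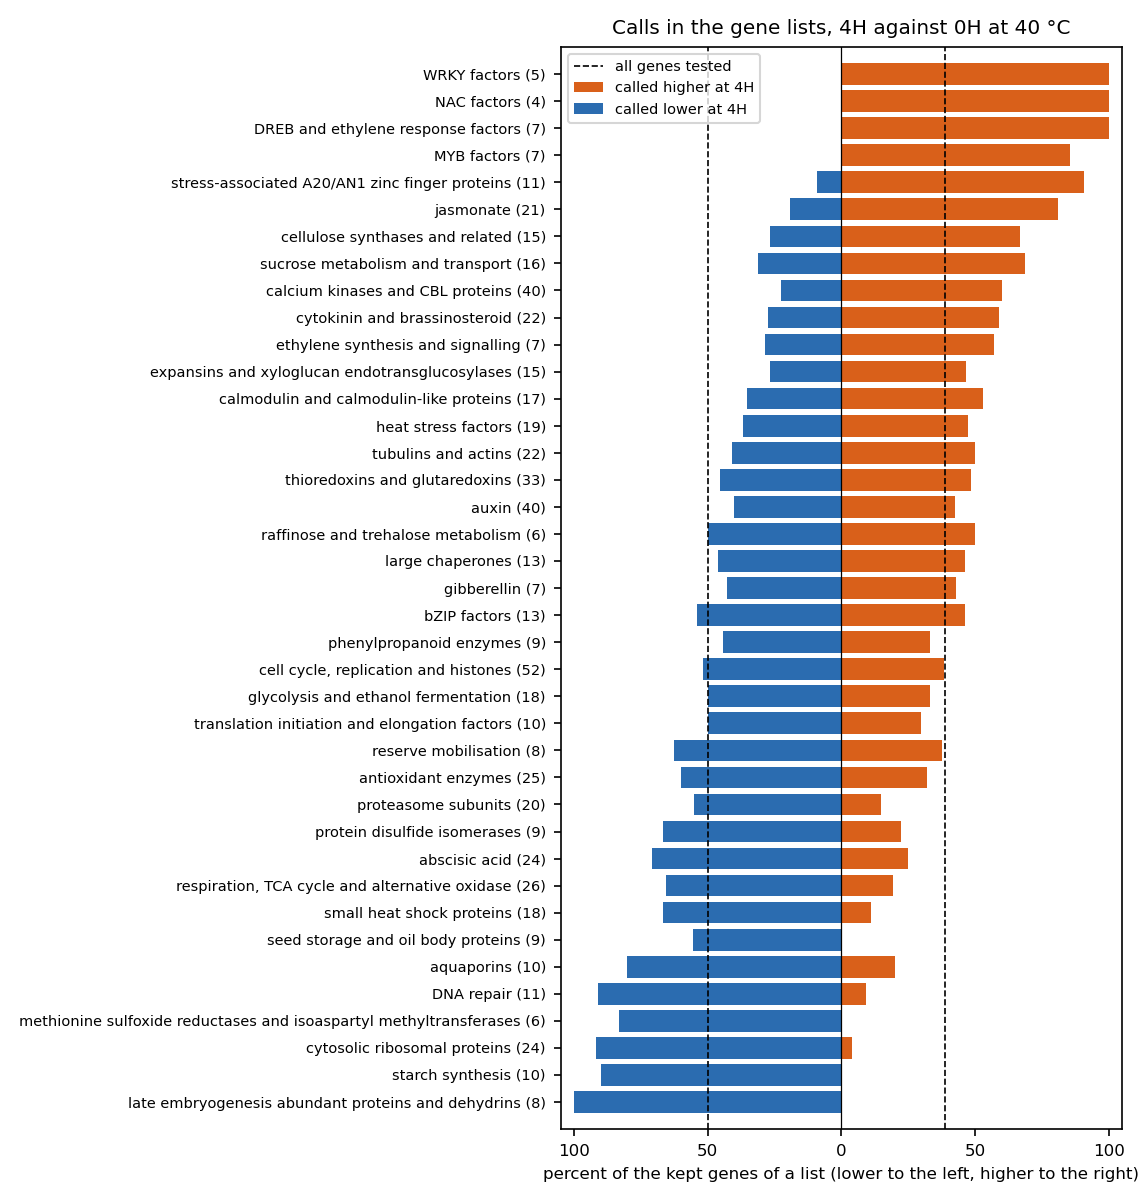
Percent of the kept genes of each of 39 lists (number in brackets) that were called higher (orange, to the right) or lower (blue, to the left) at 4H in 40 °C axes, with dashed lines at the shares of all genes tested, 38.8% higher and 49.7% lower. The listed stress transcription factors, A20/AN1 proteins and jasmonate genes lie at the higher end, and late embryogenesis abundant proteins, starch synthesis, ribosomal proteins and DNA repair at the lower end.

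The heat stress factors, which switch on chaperone genes, divided almost evenly, with 9 higher and 7 lower of 19, 1 of them called with all 6 arrays below log2 4. Beyond 2-fold were 7 rises and 5 falls. HSFA9, the seed-specific factor known from sunflower and Arabidopsis, went from 6.45, 6.38 and 6.37 to 10.05, 9.93 and 10.05 (3.60 ± 0.08, SE), while HSFA6B went from 9.39, 9.41 and 9.37 to 7.26, 7.24 and 7.26 (-2.13 ± 0.06, SE). Small heat shock proteins, chaperones that hold unfolding proteins in solution, were mostly lower, with 12 of 18 lower and 2 higher (median size -0.53). HSP16.0 read 7.63, 7.13 and 7.26 in 0H and 5.51, 5.12 and 5.41 in 4H (-1.99), and HSP26.2 differed by -0.60. HSP17.9B was the exception by size, at 5.56, 5.45 and 5.45 in 0H and 9.77, 10.13 and 10.19 in 4H (4.55 ± 0.11, SE). HSP18.8 was below log2 4 in 0H and rose by at least 1.49. Of 13 larger chaperones 6 were higher and 6 lower. BIP1, the chaperone of the endoplasmic reticulum, rose by 1.73, HSP81-2, of the HSP90 family, fell by 0.54, and DJA6, a J-domain co-chaperone, went from 10.71, 10.84 and 10.76 to 8.05, 7.96 and 8.09 (-2.74 ± 0.07, SE).

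**Figure D4:**
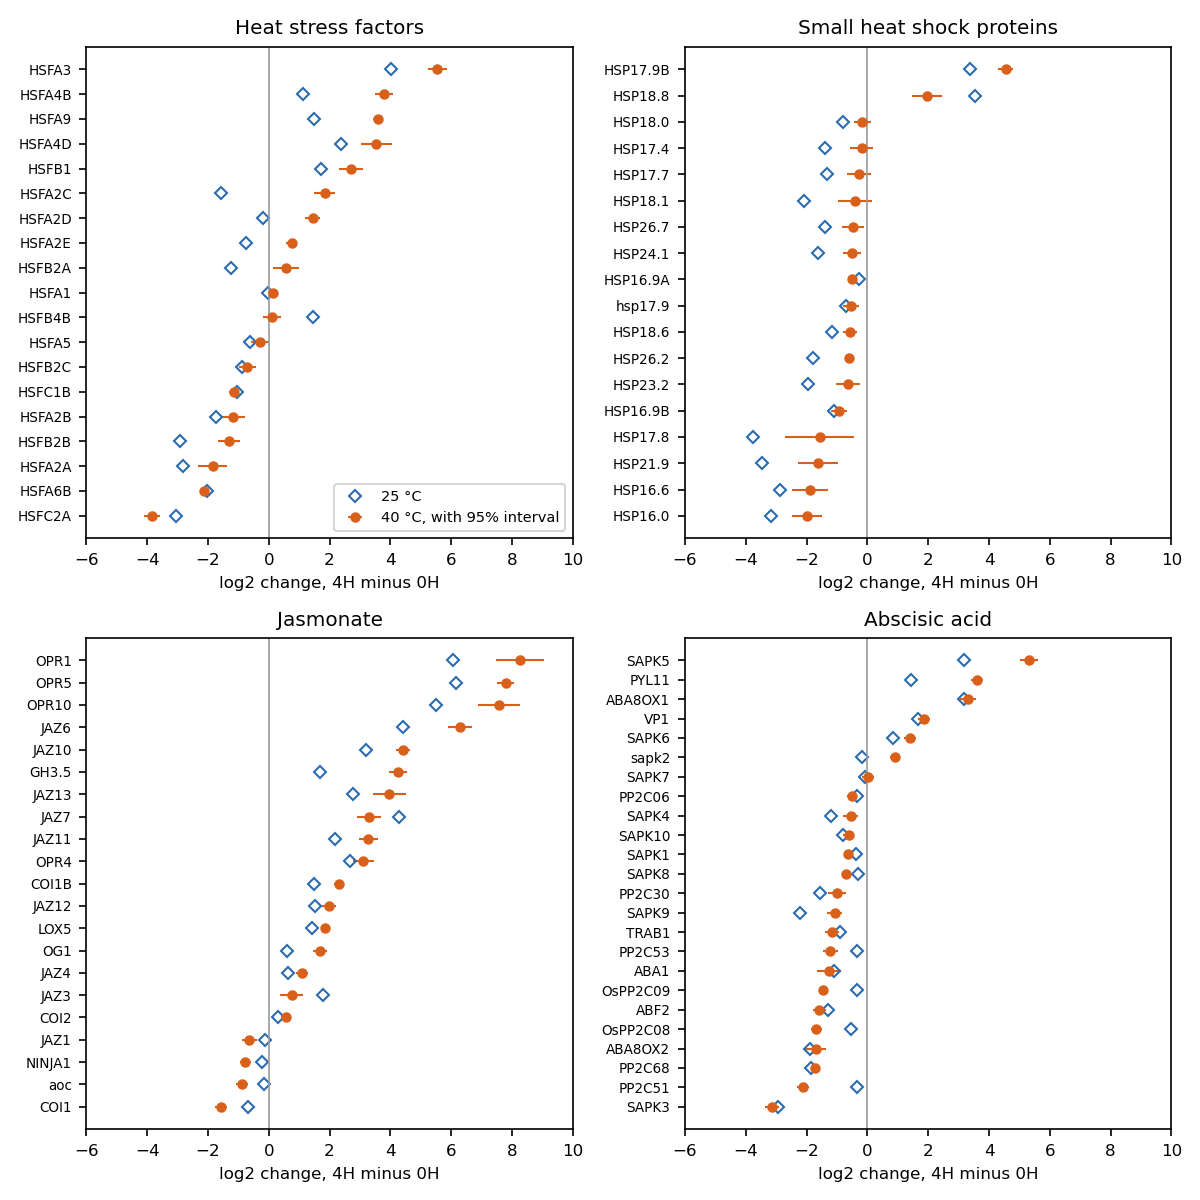
Fitted log2 change, 4H minus 0H (horizontal axis), of every kept heat stress factor, small heat shock protein, jasmonate gene and abscisic acid gene, with filled circles and 95% intervals for 40 °C and open diamonds for 25 °C. The fitted changes of genes below log2 4 in a group are not bounds, and most small heat shock proteins lie left of 0 but nearer to it at 40 °C than at 25 °C.

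All 8 late embryogenesis abundant proteins and dehydrins fell, 2 of them more than 2-fold (median size -0.69). RAB16D went from 10.15, 9.92 and 10.04 to 7.45, 7.22 and 7.11 (-2.78 ± 0.14, SE), Dhn1 fell by 1.21 and RAB21 by 0.63. Of 9 kept storage and oil body proteins 5 were lower and none higher (median size -0.64), a share lower near that of all genes. GLB, a globulin, read 5.60, 5.60 and 5.67 in 0H and was below log2 4 in 4H, at least 1.62 lower, and GLUA-1, a glutelin, differed by -1.02. This count is unsteady, as it was 2 without any 1 of 0H replicates 1 and 3 and 4H replicates 1 and 2, 3 without 0H replicate 2 or 4H replicate 3, and 9 in a fit of the 40 °C arrays alone. Starch synthesis genes were lower in 9 of 10 and higher in none, or in 1 without 4H replicate 1 (median size -1.13), with DPE1, a disproportionating enzyme, at 8.89, 8.99 and 9.10 in 0H and 6.06, 6.13 and 5.84 in 4H (-2.98). AGPS2, a small subunit of ADP-glucose pyrophosphorylase, fell by 2.95 and SSII-1, a starch synthase, by 2.08. GLB, GLUA-1 and AGPS2 are also among the endosperm markers, whose summed level was lower in the 4H arrays.

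Genes of carbon metabolism moved in both directions. Of 16 kept genes of sucrose metabolism and transport 11 were higher and 5 lower, 9 and 5 of them beyond 2-fold (median size 1.05). SPP1 and its relative SPP2 fell, the latter by 2.61, and the sucrose synthase SUS4 fell by 1.91, while the sucrose carrier SUT2 rose by 1.21. Of 18 genes of glycolysis and fermentation 6 were higher and 9 lower. FBA1, a fructose-bisphosphate aldolase, went from 5.42, 5.98 and 5.48 to 10.08, 10.06 and 10.02 (4.43 ± 0.20, SE), whereas GAPC, a cytosolic glyceraldehyde-3-phosphate dehydrogenase, fell by 1.68 and the hexokinase HXK8 by 2.29. Among 26 genes of respiration 5 were higher and 17 lower (median size -0.63). VDAC6, a channel of the outer mitochondrial membrane, fell by 1.79 and Beta-ETF, an electron carrier of fatty acid and amino acid breakdown, by 1.98. AOX1, the alternative oxidase, was below log2 4 in 0H and rose by at least 1.83. The alpha-amylases did not move together: AMY1.1 went from 4.69, 4.48 and 4.68 to 8.76, 9.06 and 9.02 (4.33 ± 0.18, SE), AMY1.4 fell by 2.76 and AMY1.2 by at least 2.2. They are also among the markers of aleurone and scutellum, whose summed level was lower at 4H. That sum follows its strongest marker, the lipid transfer protein LTP-2 (means of 11.62 in 0H and 10.16 in 4H), more than the amylases. REP1, a cysteine proteinase of reserve breakdown, fell by 2.01.

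Ribosomal proteins were lower at 4H in nearly every listed member that passed the filter. Of 24 cytosolic ribosomal proteins 22 fell and 1 rose, 11 falling more than 2-fold (median size -0.98). RPL5 read 10.30, 10.30 and 10.33 in 0H and 8.98, 9.02 and 9.02 in 4H (-1.31 ± 0.05, SE), RPS4 differed by -1.30 and RPL11 by -1.08. QM1 was the member that rose, by 0.93. Translation factors did not follow the ribosomal proteins, with 3 higher and 5 lower of 10 and none more than 2-fold lower. The RNA helicase eIF-4A-3 rose by 1.86 and eIF-4A-1 fell by 0.71. Of 20 proteasome subunits 11 were lower and 3 higher (median size -0.29), a share lower near that of all genes, as it was for the translation factors. RPN1B, of the regulatory particle, differed by -1.85 and PAE1, of the core ring, by -1.62, while PAD1 rose by 0.89.

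Repair and redox genes were lower in several lists. DNA repair genes were lower in 10 of 11, 1 of the 11 called with all 6 arrays below log2 4, and higher in 1 (median size -1.85). NBS1, which acts at double-strand breaks, read 6.54, 6.60 and 6.59 in 0H and was below log2 4 in 4H (at least 2.58 lower), EME1, a subunit of a junction-cutting nuclease, fell by 2.57 and xrcc1, of single-strand break repair, by at least 1.85. The photolyase, which reverses ultraviolet damage, rose by 1.87. Of 6 genes that repair oxidised methionine or damaged aspartate in proteins 5 fell and none rose (median size -1.45). The methionine sulfoxide reductase MSRB5 went from 10.21, 10.11 and 10.13 to 8.21, 8.27 and 8.53 (-1.82), MSRA2-1 fell by 1.82, MSRA4 by 1.09 and MSRB3 by at least 1.86. Antioxidant enzymes were lower in 15 of 25 and higher in 8 (median size -0.86). APX6, an ascorbate peroxidase, fell by 2.54 and the peroxiredoxin PRXIIE-1 by 1.63. GR, glutathione reductase, went from 8.14, 8.01 and 8.15 to 10.80, 10.95 and 10.96 (2.80 ± 0.07, SE). The 33 thioredoxins and glutaredoxins divided into 16 higher and 15 lower, 1 of these with all 6 arrays below log2 4, with the nucleoredoxin OsNrx1-2 up by 4.17 and GRXS1 down by 2.02. Of 9 protein disulfide isomerases 6 were lower and 2 higher, and PDIL5-1 fell by 2.17. Without 0H replicate 1 or 4H replicate 2, 1 was higher.

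Growth-related lists were mixed, apart from the water channels. Of 10 kept aquaporins 8 were lower, all of them more than 2-fold, and 2 were higher (median size -1.87). PIP1-2, of the plasma membrane, went from 10.73, 10.89 and 10.92 to 8.28, 8.13 and 8.23 (-2.63 ± 0.11, SE), TIP2-2 fell by 2.26 and TIP3-1, the seed vacuole form, by 1.79. SIP1-1 rose by 0.65 and TIP4-1 by 0.54. Cellulose synthases and their relatives were higher in 10 of 15 and lower in 4 (median size 0.76), CESA5 going from 7.44, 7.35 and 7.45 to 10.07, 9.94 and 10.11 (2.63 ± 0.08, SE) and CESA1 rising by 2.28. Of 15 kept expansins and xyloglucan endotransglucosylases, which loosen the wall, 7 were higher and 4 lower, but 3 of these calls had all 6 arrays below log2 4. EXPB4 rose by at least 2.11 and XTH8 by at least 2.02, while EXPA10 fell by 1.37. Tubulins and actins were divided into 11 higher and 9 lower of 22, with TUB4 up by 2.35 and the actin filament-cutting ADF-7 down by 2.02. Of 52 genes of cell cycle, replication and histones 20 were higher and 27 lower (median size -0.23). CDKG-1, a cyclin-dependent kinase, rose by 3.07 and RPA1A, a single-strand DNA binding protein, by 2.55, whereas the cyclin CycC1;1 fell by 2.36. Of the embryo markers, OSH1, a homeobox gene of the shoot meristem, read 6.51, 6.51 and 6.41 in 0H and was below log2 4 in 4H (at least 2.47 lower).

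The enzymes of phenylpropanoid synthesis, which leads to lignin, were 3 higher and 4 lower of 9. CCR1 went from 5.02, 4.73 and 4.52 to 9.21, 9.01 and 8.84 (4.26 ± 0.19, SE), PAL was at least 1.63 lower and CAD1 fell by 2.51. Raffinose and trehalose genes were 3 higher and 3 lower of 6, and RFS, raffinose synthase, fell by 1.14.

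The same 4H-against-0H contrast in control axes kept at 25 °C was used to ask which changes depended on the storage temperature. At 25 °C, 9630 genes were called (83.6%), 4667 higher (40.5%) and 4963 lower (43.1%), with 2313 more than 2-fold higher (20.1%) and 1983 more than 2-fold lower (17.2%). Over probe sets, 14457 were called (81.9%), 7044 higher (39.9%) and 7413 lower (42.0%). The 40 °C and 25 °C contrasts share no array. Called at both temperatures were 8721 genes, of which 8046 (92.3%) went the same way and 675 went opposite ways, 249 higher at 40 °C and 426 lower at 40 °C. Across the 11516 genes, which are not independent replicates, the fitted changes correlated at Pearson's r = 0.839, given as a description. The difference between the changes was itself tested as an interaction contrast. It was called for 7815 genes (67.9%), positive for 2878 (25.0%) and negative for 4937 (42.9%). Over probe sets it was called for 11469 (65.0%), positive for 28.1% and negative for 36.9%. Among the 4373 genes lower at both temperatures, the fall was larger at 40 °C in 2470 (56.5%) and smaller in 408 (9.33%), and the median fitted changes were -1.48 and -0.99. Among the 3673 genes higher at both, the rise was larger at 40 °C in 1515 (41.2%) and smaller in 804 (21.9%), with medians of 1.66 and 1.44.

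**Figure D5:**
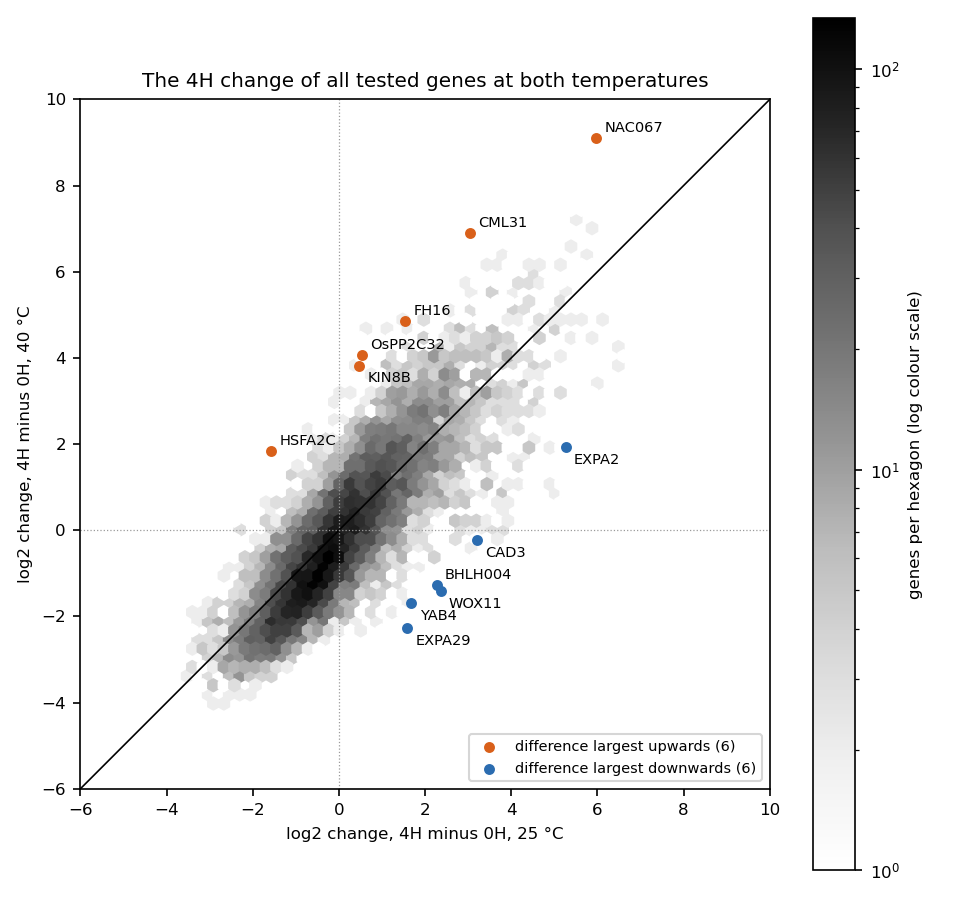
Fitted log2 change, 4H minus 0H, at 25 °C (horizontal axis) and at 40 °C (vertical axis) of 11516 genes, with darker hexagons holding more genes, a line of equal change, and the named genes with the largest differences in colour. The genes spread along the line, though the difference between the changes was called for 67.9% of them. EXPA29 and WOX11 rose at 25 °C and fell at 40 °C, and HSFA2C did the reverse.

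By pathway, the difference was negative for 22 of 24 ribosomal proteins, whose median fitted change was -0.98 at 40 °C and -0.21 at 25 °C, and positive for none. It was negative for 15 of 20 proteasome subunits, 14 of 18 genes of glycolysis and fermentation, 19 of 26 genes of respiration, 8 of 10 aquaporins and all 6 genes of protein repair, with 1, 1, 1, none and none positive. The storage and oil body proteins had a negative difference in 8 of 9. Their median fitted change at 25 °C was 0.50, but there 0 were called higher and 1 lower. Small heat shock proteins went the other way: 14 of 18 had a positive difference and 2 a negative one, with a median of -0.53 at 40 °C and -1.40 at 25 °C. The heat stress factors had 11 positive and 2 negative differences of 19. Among jasmonate genes 14 differences were positive and 6 negative, and the medians were 2.31 at 40 °C and 1.70 at 25 °C. In expansins and xyloglucan endotransglucosylases 10 of 15 differences were negative and 1 positive, with medians of 0.17 at 40 °C and 2.87 at 25 °C.

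Single genes show how far the temperatures diverged. HSFA2C, a class A heat stress factor, rose by 1.84 at 40 °C and fell by 1.58 at 25 °C, a difference of 3.42 (adjusted p = 5.09e-08), though a second probe set for it rose by 0.55 at 40 °C (adjusted p = 0.0196). CML31, a calmodulin-like protein, rose by at least 4.75 at 40 °C and at least 1.37 at 25 °C, with a fitted difference of 3.85 ± 0.28 (SE). OsPP2C32, a protein phosphatase of the PP2C family, rose by 4.07 at 40 °C, and its 25 °C change was 0.53 (difference 3.55). SPO11-4 fell by 3.16 at 40 °C and by 0.58 at 25 °C, a difference of -2.59 (adjusted p = 1.96e-08). In the other direction, EXPA29, an expansin, read 7.75, 7.75 and 7.90 in 0H and 5.74, 5.33 and 5.53 in 4H at 40 °C, a change of -2.27 against 1.59 at 25 °C (difference -3.85, adjusted p = 2.04e-09). WOX11, a homeobox gene of crown root growth, read 6.01, 6.07 and 5.86 in 0H and 4.73, 4.56 and 4.45 in 4H at 40 °C, a change of -1.41 against 2.36 at 25 °C (difference -3.77). MSRA2-1 and EIN2, which fell at 40 °C, had changes of 0.11 and 0.04 at 25 °C, and their differences were -1.93 (adjusted p = 5.19e-08) and -1.32 (adjusted p = 1.09e-05). For some large changes no difference was called: PDC1 changed by 6.08 at 25 °C, and its difference of -0.32 had a 95% interval from -1.09 to 0.45 (adjusted p = 0.452). SAPK3 changed by -2.94 at 25 °C, with a difference of -0.20 and an interval from -0.54 to 0.13 (adjusted p = 0.271).

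The genes with the highest signals whose change at 40 °C was tightly bounded form the opposite end. For 339 genes the 95% interval of the change lay within 0.3 of 0 on the log2 scale. Of the named ones with the highest mean, GOS2, a translation initiation factor of the eIF1 type, changed by 0.03, DRR2 by -0.07, OsC3H37, a CCCH zinc finger protein, by 0.11 and Eno1, enolase, by 0.12. At 25 °C Eno1 changed by 1.1. GAPC3 and OC-XII, a cysteine proteinase inhibitor, had changes of -0.12 and -0.14 that missed the threshold here but passed it in some alternatives, GAPC3 with either sign (-0.17 after median centring, adjusted p = 0.0277, and 0.14 after quantile normalization, adjusted p = 0.0296).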

How the data were processed

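Total RNA of embryonic axes was labelled and hybridised to 12 Affymetrix Rice Genome Arrays, and the labels' protocols state 26 to 82 µg of RNA and 20 µg of cRNA per sample. The deposited values are log2 signals per probe set, made by the authors with GCRMA (background correction from probe sequence, normalization across arrays, summary of the probes of a set) per the submitters' processing notes, with no version. No source used here gives the log base, which was taken from their range. Normalization across arrays removes any change in the total amount of transcript, so every change is relative to the other probe sets.

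Of 57381 probe sets, 123 controls were read separately, and 17650 above log2 4 in at least 3 arrays were tested. Tests used limma 3.58.1 in R 4.3.3: lmFit on the means of 4 groups over all 12 arrays, eBayes with a variance trend, 8 residual degrees of freedom, two-sided, with Benjamini-Hochberg adjustment over all kept probe sets in each of 3 contrasts and a threshold of 0.05. The labels do not say that replicate numbers pair arrays. At 25 °C the deviations of same-numbered arrays from their group means correlated at 0.229, 0.126 and 0.423, all above 0.1. Those of differently numbered arrays lay between -0.344 and 0.205, so the values do not settle whether arrays were paired. A fit with the number as a block is among the alternatives. The number of arrays limits the precision. A table of RefSeq names (ASM3414082v1) paired 22436 probe sets with 1 gene and 95 with several, and each gene was read from the probe set with the highest mean. No genome build is named for the files, and no sequence or coordinate is given.

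Named genes are those with a short symbol that fall under one of 4 rules: the 15 largest called rises and falls whose groups do not overlap; in each of 39 lists with at least 3 kept genes, the 4 called members with the lowest p and up to 2 that move against the majority; the 6 largest differences between temperatures each way; and up to 6 genes with the highest mean whose 95% interval lies within 0.3 of 0. The comparison, rules and lists were chosen with earlier results of these data known, and lists were translated to symbols after the annotation was read. In simulated data for the 40 °C contrast the fit recovered 89 of 100 changes of 1 and 99 of 100 changes of 2 on the log2 scale, with 12 false calls among 200, over 17650 probe sets. For the difference between temperatures it recovered 72 and 98 of 100, with 15 false calls among 185. The simulation changed only these probe sets, with independent noise, whereas 87.2% of probe sets were called in the 40 °C data. Its rates therefore do not give the accuracy of the calls made here. Tables and figures were made in Python 3.11.15 with numpy 2.4.6, pandas 2.3.3 and matplotlib 3.10.9. Seed stored at 45 °C, also named in the labels, was not analysed here.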

Additional observations from a re-analysis of the deposited data

Results flagged for a closer look

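The 4H change differed between 40 °C and 25 °C axes, by the interaction contrast in limma, for 4957 probe sets with a positive difference (28.1%) and 6512 with a negative one (36.9%). With 3 arrays in each group, no search for single outlying samples was made.

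The 6 named genes with the largest positive differences, on the fitted log2 scale, were CML31 at 3.85, OsPP2C32 at 3.55, HSFA2C at 3.42, KIN8B at 3.35, FH16 at 3.31 and NAC067 at 3.13. KIN8B lay below log2 4 in both groups at 25 °C and rose by at least 1.72 at 40 °C. NAC067 lay below log2 4 in all 3 0H arrays at 40 °C, so its fitted difference depends on values under that limit. Its rise was at least 6.91 at 40 °C, and the fitted change at 25 °C was 5.97.

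The 6 largest negative differences were those of EXPA29 at -3.85, WOX11 at -3.77, BHLH004 at -3.56, CAD3 at -3.44, YAB4 at -3.37 and EXPA2 at -3.33. BHLH004, CAD3 and EXPA2 read below log2 4 in all 6 arrays at 40 °C. Their rises at 25 °C were at least 0.56, 1.44 and 2.63. EXPA29 and WOX11 were above log2 4 in all 6 arrays at 40 °C.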

How the results depend on the processing

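The counts of probe sets kept their direction and stayed within 1.5 times of the values given under all 22 alternatives, except when the filter was raised to log2 6. That filter tested fewer probe sets and gave 4705 higher and 5340 lower at 40 °C and 4546 higher at 25 °C. Leaving out 1 array at a time gave 7039 to 7131 higher and 7917 to 8046 lower at 40 °C, 6730 to 7050 and 7161 to 7362 at 25 °C, and 4705 to 5178 positive and 6120 to 6510 negative differences. Without 0H replicates 1 and 2 of the 40 °C group, 6677 were higher and 7551 lower. At 40 °C the deviations of same-numbered arrays correlated at -0.052, 0.102 and 0.173, so the numbers were not taken as pairs there. Differently numbered arrays reached 0.236 at 40 °C. At 25 °C every same-numbered pair exceeded 0.1, as did some differently numbered ones (up to 0.205). With the number as a replicate block 7276 were higher and 8230 lower at 40 °C, 7110 and 7487 at 25 °C, with 5116 positive and 6618 negative differences. Leaving out both of those 0H arrays, an alternative for the controls chosen after seeing the data, moved the 4H minus 0H difference to -1.21 for Gapdh 3′ minus 5′ (from -0.89), 3.02 for 18S (from 1.38), -0.75 for 25S (from -0.59), 0.96 for 28S ribosomal RNA (from 0.01) and 0.34 for the poly-A spike-ins (from -2.30). Of 226 results for named genes, 216 kept direction and call in every alternative that could test them, and 10 did not. No called result turned direction, but GAPC3, at -0.12 and not called, was called at -0.17 after median centring and at 0.14 after quantile normalization. GBSS1 lost its call without 0H replicates 1 and 2 together (adjusted p = 0.0806). GLUB-5 lost it without any 1 of the 6 arrays at 40 °C (adjusted p up to 0.104), GluC without any 1 of them other than 0H replicate 2 (up to 0.0917), and AMY1.3 without any 1 of replicates 1 and 2 of either group (up to 0.13). Counts in the gene lists moved by over 1.5 times in 27 cases and by less in 1221, most often for the storage proteins; the cause was not tested. Signals under log2 4 carry little order, which limits the sizes of genes absent from one group.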

Other observations

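Lists with fewer than 3 kept genes were left out of the report. One of them holds the nonsymbiotic hemoglobins, oxygen-binding proteins of plant cells low in oxygen, and its members were singled out after their values were seen. NSHB1 read 1.84, 2.05 and 2 in 0H and 7.47, 7.62 and 7.52 in 4H at 40 °C, a rise of at least 3.54 (adjusted p = 2.25e-14). NSHB2 read 2.37, 3.51 and 2.02 in 0H and 8.33, 8.49 and 8.17 in 4H, a rise of at least 4.33. Their fitted changes at 25 °C, which are not lower bounds, were 8.09 and 8.30. The median fitted change of the 2 genes was 8.19 at 25 °C and 5.64 at 40 °C. These rest on 0H signals under log2 4, as does any fitted difference between the temperatures, so none is given. Of the 2 kept genes of the list of organelle-encoded transcripts, 1 was lower and none higher at 40 °C.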
